A study of Oryza sativa with 12 samples.

Results

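The young emerged panicle of the rice line KMR3 was compared with its flag leaf. The comparison took every array whose title names KMR3, 3 of panicle and 3 of flag leaf, out of 12 arrays in the series. Of 57381 probe sets on each array 34316 were tested, and they include 16524 genes that a probe set names singly. All KMR3 plants were grown in the field under standard practice, and the labels name no transgene and no treatment. The labels give no plant age, time of day at sampling or number of plants per sample. The other 6 arrays hold the same organs of IL50-7, an introgression line that the series title calls high yielding, and serve only to show which organ differences recur. Values are log2 intensities after quantile normalization over the 6 KMR3 arrays, the means are of 3 arrays per organ, and replicates 1 to 3 are listed in that order.

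The flag leaf is the last leaf a rice shoot makes before it flowers, and its photosynthesis supplies much of the sugar that later fills the grain. The panicle is the branched flowering head. Each of its florets holds bract-like hulls, lodicules, stamens and a pistil, whose identities are set by combinations of MADS-box transcription factors, while the tapetum lining each anther feeds the developing pollen. Both organs are mixtures of cell types, and in whole organs fewer cells of a type and less RNA per cell cannot be told apart.

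Correlations taken over the probe sets tested, which serve as a description only, lay between 0.666 and 0.723 for pairs of a leaf and a panicle array. Leaf arrays correlated with each other at 0.931 to 0.940. Panicle replicates 1 and 2 correlated at 0.963, while replicate 3 correlated with them at 0.918 and 0.919. The 3' to 5' intensity ratio of control transcripts, a sign of RNA quality, was higher on all 3 panicle arrays than on all 3 leaf arrays for 5 of 5 control pairs, at 16 to 23.3 against 2.57 to 6.32 for GAPDH and 0.979 to 1.04 against 0.787 to 0.869 for ubiquitin. That ratio therefore moved with organ beside every gene group, and its part in the differences was not tested. The labels name the replicates biological, without saying whether separate plants or plots stand behind them.

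Nearly as many probe sets were higher in the panicle as in the leaf. By limma at an adjusted p of 0.05, 7816 of 34316 probe sets (22.8%) were higher in the panicle and 8253 (24.1%) lower, together 46.8%. On the deposited scale 69% of the called probe sets were higher in the panicle, with array medians set equal 62.1%, and with arrays set equal on spiked controls 59.6%, against 48.6% here, so the balance of the directions depends on the scaling. The median difference over all probe sets was -0.11 here and 0.29, 0.13 and 0.06 under those scalings, and differences of that size cannot be read as a direction. Counted by gene, each represented by its brightest probe set, 31.9% of the genes tested were higher and 25.5% lower, with a median difference of 0.12. Every group count is read against these shares, and a count near them is no trait of its group. Against a minimum of 2-fold (limma's treat), 13.6% of genes were higher and 10.3% lower, and 9.57% and 8.99% of probe sets. The 3 arrays of one organ lay entirely on one side of those of the other for 59.3% of probe sets and 68.8% of genes.

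A part of the difference was between detection and no detection. Of 57194 probe sets 1632 stood above background (log2 3.96) on all 3 panicle arrays and below it on all 3 leaf arrays, and 1021 did the opposite. Those probe sets name 936 genes for the panicle and 274 for the leaf. A further 21615 stood above background on all 6 arrays. Where a gene lay below background on every array of an organ, its fold is given as a lower bound against that background.

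**Figure D1:**
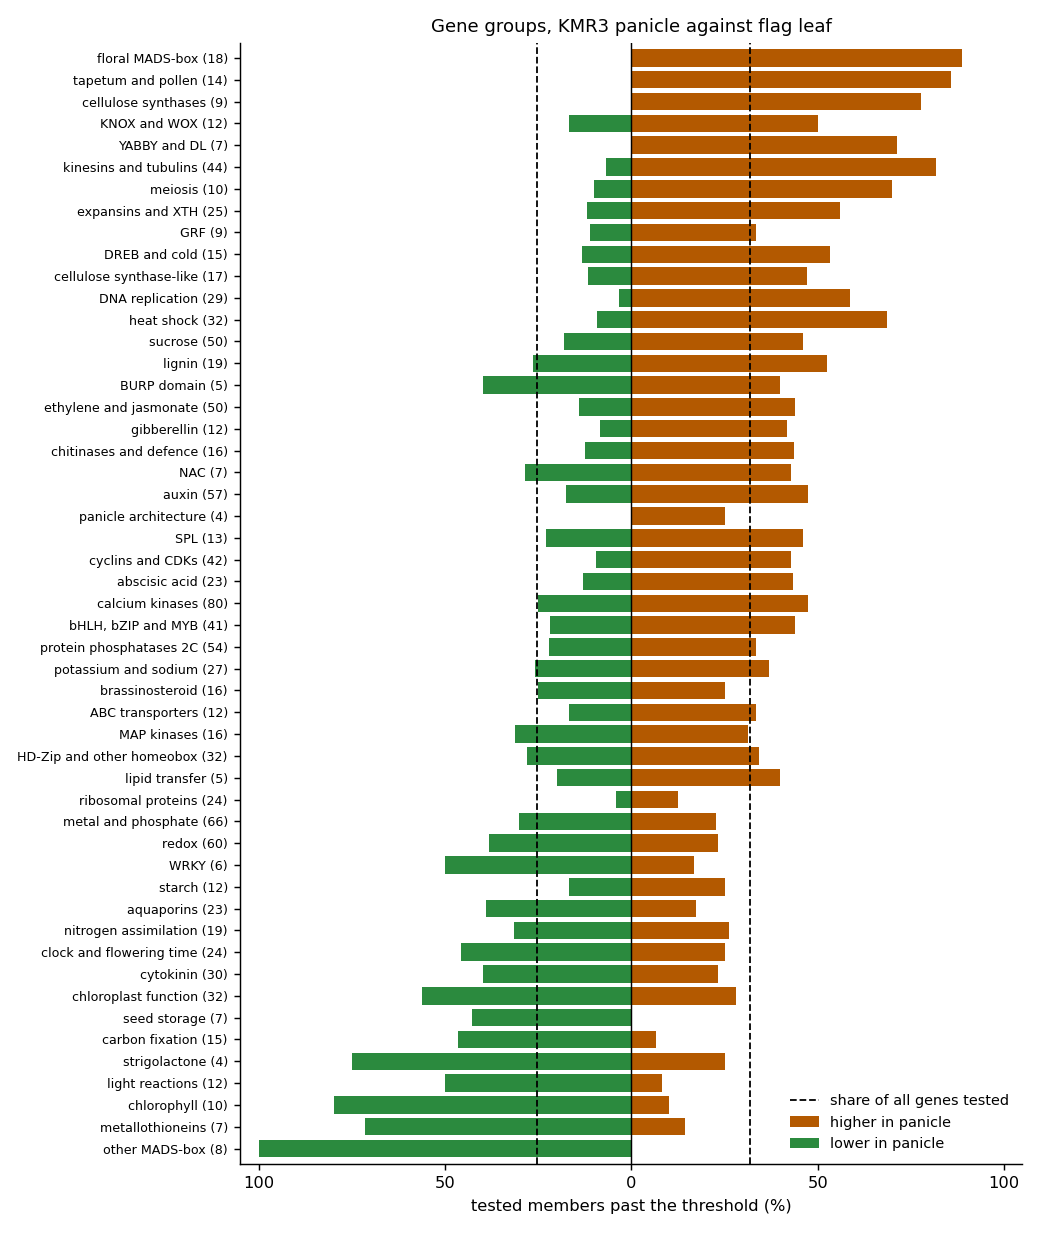
Share of the tested members of each gene group, in percent, that were higher (right) or lower (left) in the KMR3 panicle by limma, for groups with at least 4 tested members, ordered by their median difference. Numbers in brackets count the tested members, and the dashed lines mark the shares over all genes tested, 31.9% higher and 25.5% lower. Floral MADS-box genes and tapetum and pollen genes reach farthest to the right, and chlorophyll genes and the other MADS-box genes farthest to the left.

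Chia1d, a chitinase, had the largest fitted difference among genes with a descriptive name. It stood at 13.53, 13.60 and 13.57 in the panicle and at 0.24, 0.90 and 0.24 in the leaf, so that a bright signal on every panicle array met values under background on every leaf array (at least 780-fold higher, limma, adjusted p = 1.71e-06). RTS, a gene of the tapetum, stood at 13.74, 13.82 and 14.01 against 1.69, 1.07 and 2.01 and was at least 955-fold higher. The class III peroxidase PRX74 (at least 133-fold higher) and a second chitinase, Cht1 (LOC4338719) (at least 84.7-fold higher), were also under background on all leaf arrays. The beta-expansin EXPB10, of a family that loosens grass cell walls, stood at 11.48, 11.95 and 7.96 in the panicle and at a mean of 1.55 in the leaf (at least 90.8-fold higher), and replicate 3 was far below the other panicle arrays. The bound was 216-fold without panicle replicate 3 and 54.3-fold without replicate 2. Its relative EXPB9 rose from a mean of 2.84, under background, to 12.02 (adjusted p = 0.00122). Among genes known only by a number, LOC4326388 was at least 816-fold higher, LOC4348109 at least 462-fold higher, LOC4341274 at least 139-fold higher and LOC4339485 at least 104-fold higher. LOC4339485 stood at 11.80, 12.54 and 7.62 in the panicle, again lowest in replicate 3, and its bound was 296-fold without that array and 53.8-fold without replicate 2. Without panicle replicate 1 the bounds of LOC4348109 and LOC4341274 were 701-fold and 216-fold.

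CRSH2 had the largest fall among named genes. It belongs to a family of chloroplast enzymes that make the alarmone ppGpp and are activated by calcium. Its panicle values of 2.72, 1.42 and 0.44 lay under background, and its leaf values of 11.75, 12.61 and 11.39 were among the brightest on the arrays (at least 249-fold lower, limma, adjusted p = 2.56e-05). BURP2, of the plant BURP-domain family, stood at 12.67, 12.63 and 12.26 in the leaf and at 4.60, 3.37 and 1.72 in the panicle, where 2 of 3 arrays were under background. The linalool synthase LIS was at least 27.1-fold lower, or 16.4-fold without leaf replicate 1, and a peroxidase (LOC4344277) at least 27.4-fold lower. PDX12, of the vitamin B6 synthesis family, fell from 12.41 to 5.38 and the glutaredoxin GRXC1 from 12.71 to 6.18, both above background in each organ. LPR2, of a multicopper oxidase family tied in Arabidopsis to the root's response to low phosphate, was 76.5-fold lower. Of the genes known by a number, LOC4328603 was at least 216-fold lower and LOC4352346 323-fold lower. LOC4344635 fell from 12.68 to 3.24 and LOC4350979 from 12.81 to 3.74, both means under background in the panicle.

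The MADS-box genes of floral organ identity stood well above the leaf in the panicle. Of 18 members tested 16 were higher and 0 lower, against 31.9% and 25.5% of all genes. Their median difference was 6.75, or 4.72 with organ means under background set at the background, against 0.12 and 0.09 over all genes. Against 2-fold 16 passed, where 13.6% of all genes did. The E class genes, which act with every other class of floral regulator, were led by MADS7, at 10.95, 11.36 and 11.62 in the panicle and 0.24, 0.88 and 0.24 in the leaf (at least 163-fold higher, limma, adjusted p = 4.28e-06). MADS8, of the same class, stood at 11.53, 11.93 and 11.60 against 0.89, 3.47 and 3.35 (at least 212-fold higher). MADS1, which sets the identity of the hulls, stood at 11.78, 11.77 and 11.87 in the panicle and at 4.56, 3.83 and 3.26 in the leaf, where 1 array was above background. Each of these genes varied by less than 1 log2 unit over the panicle replicates. MADS7 is read by a probe set whose type can match related genes as well.

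The remaining classes showed the same separation. MADS6, an AGL6-like gene, stood at 11.04, 11.38 and 11.05 against 3.45, 3.17 and 2.27 (at least 147-fold higher), and MADS13, which specifies the ovule, at 8.45, 8.60 and 7.94 against 0.36, 0.24 and 0.24 (at least 20.7-fold higher). MADS14, an APETALA1-like gene of the inflorescence and floral meristem, stood at 10.45, 10.25 and 9.67 in the panicle, while 1 leaf array reached 5.03 and the other 2 lay at 1.79 and 2.06. The B class gene MADS16, needed for lodicules and stamens, was measured well above background in the leaf too (8.67, 8.65 and 8.28) and rose to 12.71, 12.97 and 12.91 (20.1-fold higher). Its B class partners MADS2 and MADS4 rose by 3.65 and 4.76. The C class gene MADS58, which acts in stamens and the pistil, rose from 4.77 to 10.20 (43.2-fold higher).

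The 2 floral members that did not pass were MADS3 and MADS18. MADS3, the other C class gene, stood at 7.30, 7.71 and 7.90 in the panicle and at 6.69, 6.90 and 7.70 in the leaf, and the organs overlapped (difference 0.53 ± 0.32 SE, adjusted p = 0.204). MADS18, an APETALA1-like gene, was at 9.92 and 9.98 (difference -0.06 ± 0.24 SE).

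**Figure D2:**
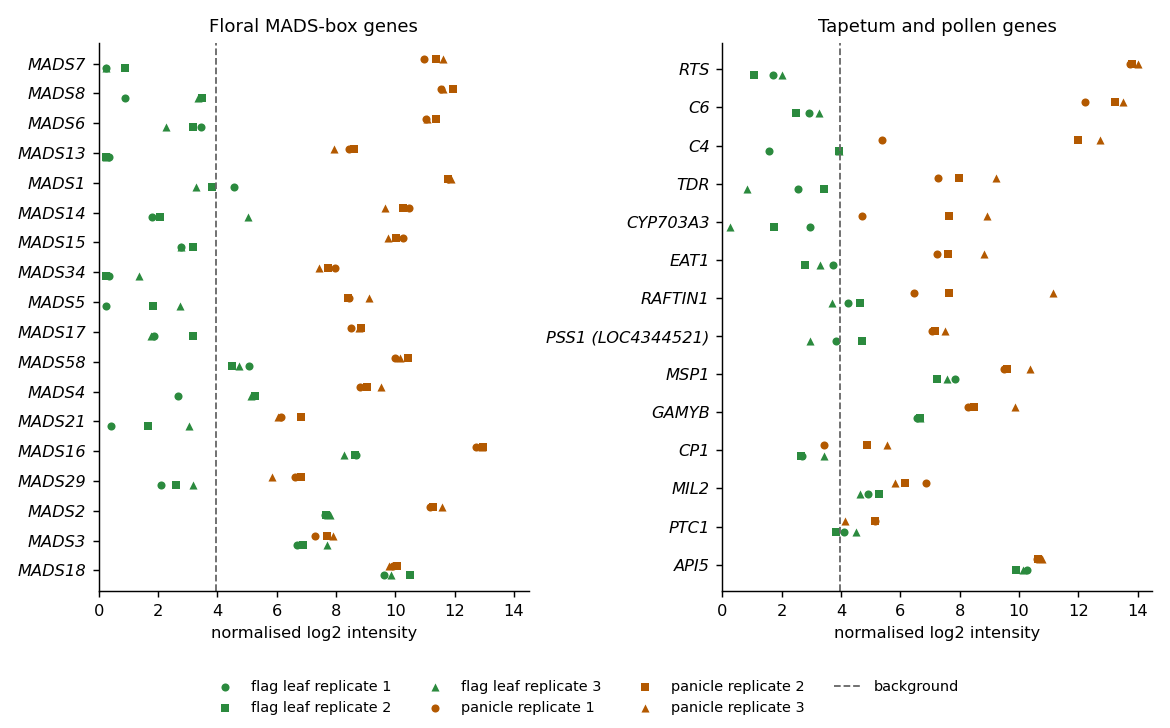
Normalised log2 intensity (horizontal axis) of each tested floral MADS-box gene and each tapetum and pollen gene on the 3 KMR3 flag leaf arrays (green) and the 3 panicle arrays (brown), with marker shapes for replicates and a dashed line at the background of 3.96. Panicle points lie to the right of leaf points for all floral genes but MADS3 and MADS18, and panicle replicate 3 is the highest of the panicle arrays for 12 of 14 tapetum and pollen genes.

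MADS-box genes outside the floral classes went the other way. All 8 members tested were lower in the panicle (3 of them past 2-fold), with a median of -2.03. They include MADS50 and MADS56, regulators of flowering time (fell by 2.03 and 2.03), and MADS47, of the SVP-like class tied to vegetative and brassinosteroid responses (8.02, 8.41 and 7.91 in the leaf, 5.85, 5.30 and 5.73 in the panicle, adjusted p = 0.000248). MADS57, of an AGL17-like clade, fell by 2.38 and MADS27 from 4.65 to 2.45, under background. On the deposited scale 5 of the 8 passed, with medians set equal 7 and on spiked controls 6.

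The knotted homeobox genes, some of which keep shoot meristems undifferentiated, were mostly higher. OSH1 stood at 12.01, 11.90 and 11.47 in the panicle and at 3.04, 3.01 and 2.0 in the leaf (at least 228-fold higher, adjusted p = 6.69e-06). OSH71 rose from 3.40 to 8.42, OSH43 from 2.37 to 6.75 and OSH3 from 2.18 to 6.47, all from means under background. HOS66 rose from 4.81 to 9.54. OSH45 and HOS59 fell by 1.21 and 1.23. In the whole list of knotted and WOX genes 6 of 12 were higher and 2 lower, and on each of the other 3 scalings 1 was lower.

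Of the YABBY genes and DL, which shape lateral organs and the carpel, 5 of 7 were higher and 0 lower. YABBY5 stood at 7.67, 8.16 and 5.97 against 2.95, 0.51 and 3.96, and YABBY1 rose from 9.08 to 12.73 (12.6-fold higher). YABBY6 rose by 3.46, and DL, which specifies the carpel and also the leaf midrib, by 2.41 (adjusted p = 0.00217).

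SPL and GRF genes, regulators of branching and of organ growth, were mixed. In the SPL family 6 of 13 were higher and 3 lower, and 1 exceeded 2-fold. That was SPL18, at 6.30, 6.71 and 7.88 in the panicle and 2.65, 4.0 and 3.38 in the leaf. SPL9 fell by 0.81. On each of the other 3 scalings 0 of the family were lower. SPL16, known for grain width, rose from 3.91, just under background, to 5.76 and SPL14, known for panicle branching, from 2.82, under background, to 4.43 (adjusted p = 0.0447). Without panicle replicate 3 neither passed (adjusted p = 0.0553 and 0.157). Among growth-regulating factors GRF7 rose from 1.93 to 5.91, GRF4 from 3.49 to 6.11 and GRF6 by 2.64, GRF11 fell by 1.14, and the other 5 of 9 did not pass. Of 4 panicle architecture genes SPL14 alone passed, while GW2 and LAX1 differed by 0.83 and 0.49, and RFL was near background in both organs.

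HD-Zip and other homeobox genes were higher in 11 and lower in 9 of 32 cases, near the shares over all genes (31.9% and 25.5%). On the deposited scale 12 were higher and 3 lower, and the sign of the group's median changes with the scaling. HOX12 and hox14 rose from 1.38 and 0.59, both under background, to 7.64 and 6.22. Roc3 did so from 1.27 to 6.39, and HOX1 fell by 2.24. Of 41 bHLH, bZIP and MYB factors 18 were higher and 9 lower, led by TDR and EAT1 of the tapetum, and by BZIP60, which rose by 3.54.

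Genes of the tapetum and of pollen were higher in the panicle. 12 of 14 members passed upward and 0 downward, with a median of 3.82 (3.20 with means under background set there), and 9 exceeded 2-fold. C6, a lipid transfer protein of the pollen wall, stood at 12.22, 13.25 and 13.52 in the panicle and 2.93, 2.49 and 3.26 in the leaf (at least 526-fold higher). TDR, a bHLH factor that drives the breakdown of the tapetum, stood at 7.26, 7.99 and 9.22 against 2.55, 3.44 and 0.82 (at least 18.4-fold higher). EAT1, which acts downstream of TDR, rose from 3.27 to 7.88, and MSP1, a receptor kinase that limits the number of spore mother cells, by 2.26.

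Within the panicle these genes varied more than the floral regulators. C4, another tapetal lipid transfer protein, stood at 5.40, 11.99 and 12.74, so that replicate 1 was near background and the other 2 were bright, against 1.56, 3.94 and 3.92 in the leaf (adjusted p = 0.0179). RAFTIN1, a BURP-domain protein of the anther, stood at 6.46, 7.65 and 11.13, highest in replicate 3, against 4.24, 4.62 and 3.69 (adjusted p = 0.0151). CYP703A3, a hydroxylase for pollen wall precursors, stood at 4.70, 7.63 and 8.91 against 2.94, 1.74 and 0.24. Replicate 3 had the highest panicle value for 12 of 14 members and replicate 1 the lowest for 12 of 14. Over all genes replicate 3 was the highest for 45%. Without replicate 3 12 members were higher, as with it.

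Meiotic genes were also higher, 7 of 10, with 1 lower. SPO11-4, of the family that cuts DNA to start recombination, rose from 6.22 to 10.34 (17.4-fold higher). MEL1, an Argonaute protein of germ cells, stood at 7.50, 7.33 and 8.43 against 4.74, 2.89 and 4.10. The recombinase DMC1 rose from 2.27 to 4.54 and CRC1, a component of the synaptonemal complex, from 1.97 to 4.73, both near background in the panicle. With 1 array left out their adjusted p reached 0.0793 and 0.0768, for DMC1 0.0791 without panicle replicate 3. SPO11-3, whose Arabidopsis namesake is a subunit of topoisomerase VI, fell by 3.89.

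DNA replication genes were higher in the panicle in 17 of 29 cases and lower in 1, with a median of 1.23. The replicative helicase led them. Of 7 MCM genes 6 were higher. MCM4 stood at 7.25, 7.30 and 7.27 in the panicle and 0.26, 0.24 and 0.24 in the leaf (at least 9.94-fold higher), with no overlap and little spread in either organ. MCM5 stood at 8.11, 8.12 and 7.75 against 3.58, 0.24 and 0.40 (at least 16.4-fold higher). RPA70b, a subunit of the protein that coats single-stranded DNA, was at least 6.36-fold higher, and MCM3 rose from 2.33 to 7.84. PCNA, the sliding clamp, was measured in the leaf as well and rose by 2.0 (4.01-fold higher). RFC3, of the clamp loader, was the 1 member that fell (by 1.69), and 10 members exceeded 2-fold upward.

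Kinesins and tubulins, motors and tracks of the spindle and of growing cells, were higher in 36 of 44 cases, 22 of them past 2-fold. All 10 tubulins tested were higher, by 0.80 to 4.89. TUB6 led them, at 11.73, 11.58 and 11.80 in the panicle and 7.63, 6.48 and 6.34 in the leaf (29.6-fold higher). Of 34 kinesins 26 were higher and 3 lower. KIN10A rose from under background to 6.14, 6.50 and 6.18 (at least 4.97-fold higher), KIN7D by 3.89 and KIN14E from 2.38 to 6.01, while KIN14K, KIN14M and KIN14L fell by 2.46, 2.0 and 1.5.

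Cyclins, cyclin-dependent kinases and their inhibitors were less uniform, 18 of 42 higher, 4 lower and 20 not past the threshold. Mitotic B-type cyclins rose in 3 of 4 cases, CYCB2-2 from 2.12 to 6.67 and CYCB1-1 from 3.69 to 7.69. Inhibitors of these kinases were found on both sides. EL2 stood at 11.96, 11.72 and 11.39 against 7.15, 7.84 and 7.39 (18.8-fold higher), and KRP5 rose by 3.84. KRP4 fell by 2.24. Histones are represented by 2 genes, of which H2B fell by 1.96 and the centromeric CenH3 differed by 0.60 without passing.

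Cellulose synthases were higher in 7 of 9 cases and lower in 0. CESA5, of the primary wall complex, stood at 10.85, 10.69 and 11.92 in the panicle and 7.41, 7.51 and 6.38 in the leaf (16.6-fold higher). CESA4, CESA7 and CESA9, which form the secondary wall complex, rose by 3.39, 3.19 and 3.17. Panicle replicate 3 was the highest panicle array for all 9 members, and without it 6 were higher. Among cellulose synthase-like genes 8 of 17 were higher. CSLF6, which makes the mixed-linkage glucan of grass walls, rose by 2.51. CSLC9 rose from 3.80, under background, to 9.62, CSLF2 was at least 5.31-fold higher, and CSLE1 fell from 9.97 to 4.26 (52.2-fold lower).

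Expansins and XTH genes were higher in 14 of 25 cases and lower in 3. EXP7 rose from 3.25 to 10.30, and EXP32 stood at 8.12, 9.09 and 4.48 against 0.24, 0.24 and 0.24 (at least 9.67-fold higher). Its bound was 25.1-fold without panicle replicate 3 and 5.07-fold without replicate 2. EXPL4 and EXPB2 fell by 3.41 and 3.30. Lignin pathway genes were higher in 10 of 19 and lower in 5, of which 2 or 3 passed on the other scalings. The family of 4-coumarate CoA ligases split, with Os4CL5 and Os4CL3 higher by 3.76 and 3.03 and Os4CL2 lower by 6.10 (10.32, 11.06 and 11.37 in the leaf, 6.76, 6.50 and 1.2 in the panicle). PAL06, of the entry enzyme of the pathway, stood at 11.85, 11.72 and 7.11 in the panicle and 4.84, 8.15 and 4.08 in the leaf, so that panicle replicate 3 lay below leaf replicate 2 and the organs overlapped (difference 4.54 ± 1.49 SE, adjusted p = 0.0396). Of its 2 probe sets 1 was called, its adjusted p reached 0.129 with 1 array left out, and IL50-7 did not pass (2.64, adjusted p = 0.221). CAD7 rose from 1.55 to 7.01.

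Heat shock genes were higher in the panicle, 22 of 32 against 3 lower, with a median of 1.15, and 13 exceeded 2-fold. Heat shock factors switch on chaperones that refold or hold damaged proteins, in heat and in some developing tissues. HSFA2A stood at 13.47, 13.54 and 13.52 in the panicle and at 1.56, 3.08 and 4.34 in the leaf, where 2 of 3 arrays were under background, and its 2 other tested probe sets passed in the same direction. HSP16.9B, a small chaperone of the cytosol, stood at 13.27, 13.45 and 13.47 against 3.41, 3.34 and 4.16. Panicle values of both genes varied by less than 1 log2 unit and lay near the top of the scale.

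Other chaperones were measured in both organs. HSP16.9A was 143-fold higher (13.31, 13.33 and 13.28 against 6.40, 5.40 and 6.64), and HSP101, which dissolves protein aggregates, 46.3-fold higher (13.43, 13.37 and 13.47 against 8.19, 7.54 and 7.93). HSP81-1, HSP81-2 and HSP81-3, of the HSP90 family, rose by 1.04, 0.94 and 0.76. Of 20 heat shock factors 12 were higher, HSFA2C by 4.88 and HSFB2A by 3.59, and 3 lower, HSFA1, HSFA5 and HSFC1A by 0.73, 1.08 and 1.21. The adjusted p of HSFC1A reached 0.107 with 1 array left out and was 0.0593 without panicle replicate 3. None of these 3 falls passed on the deposited, equal-median or spiked-control scale. Of 12 chaperones 10 were higher and 0 lower.

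**Figure D3:**
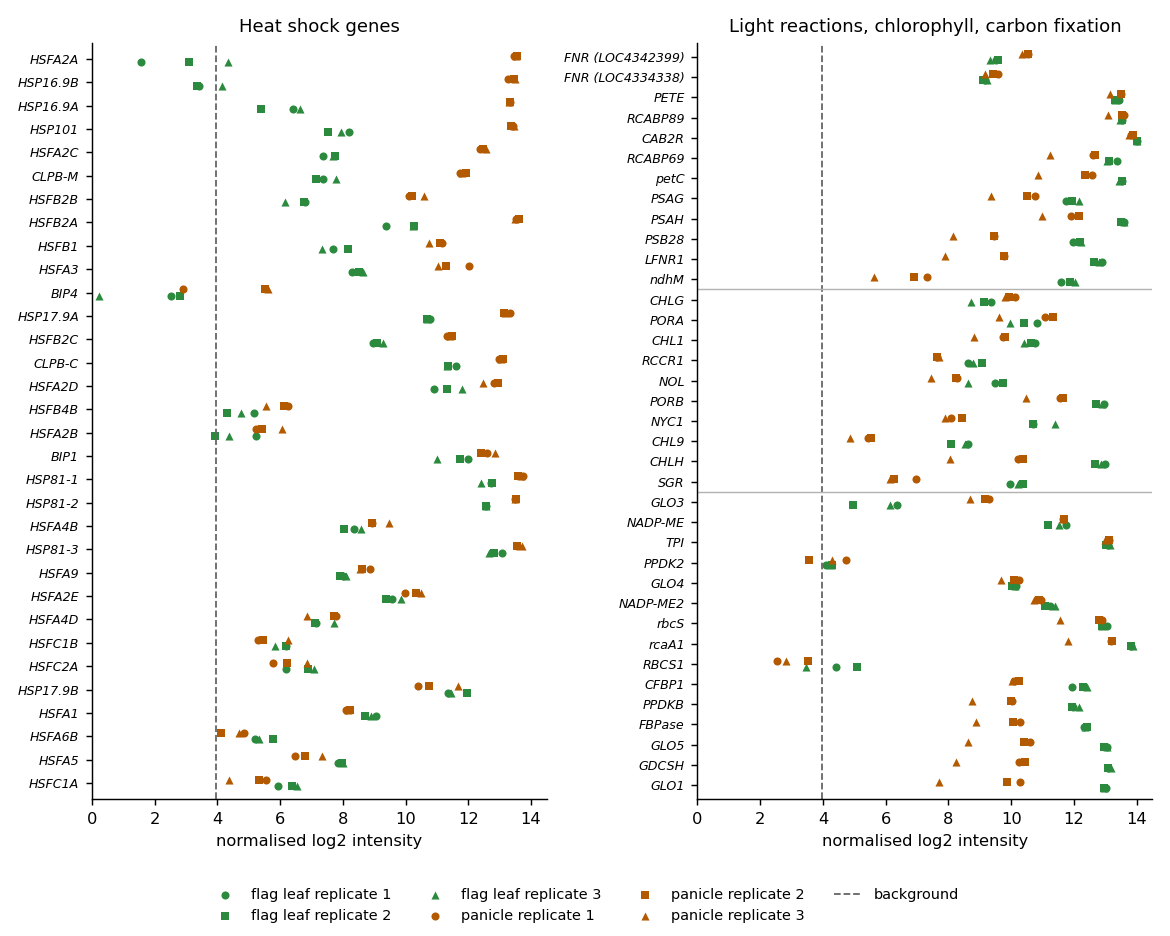
Normalised log2 intensity (horizontal axis) of every tested heat shock gene (left) and every tested gene of the light reactions, chlorophyll and carbon fixation groups (right, separated by grey lines), on the 3 leaf (green) and 3 panicle (brown) arrays, with marker shapes for replicates. Panicle points lie to the right for most heat shock genes, and panicle replicate 3 (brown triangles) is the lowest panicle array for all 12 genes of the light reactions.

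Many photosynthesis genes were lower in the panicle, though some of the brightest did not pass. Of 12 light reaction genes 6 were lower and 1 higher, with a median of -1.29. The subunit ndhM of the chloroplast NADH dehydrogenase-like complex stood at 7.32, 6.89 and 5.61 in the panicle and 11.59, 11.86 and 12.04 in the leaf (37.3-fold lower, adjusted p = 9.09e-05). LFNR1, a ferredoxin-NADP reductase of leaves, stood at 9.76, 9.77 and 7.90 against 12.88, 12.64 and 12.79 (12.4-fold lower, or 8.03-fold without panicle replicate 3), and PSB28 of photosystem II and PSAH of photosystem I fell by 3.12 and 1.87. CAB2R, a light-harvesting chlorophyll protein, was at 13.81, 13.88 and 13.75 in the panicle and at 14.01, the highest value of the normalised scale, on all leaf arrays (difference -0.19 ± 0.10 SE, adjusted p = 0.161). Plastocyanin (PETE) differed by 0.04 ± 0.14 SE and RCABP89, another light-harvesting protein, by -0.10 ± 0.16 SE. Quantile normalization gives the brightest probe set of each array the same highest value. A larger leaf signal of CAB2R could therefore not show on this scale.

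In chlorophyll metabolism 8 of 10 genes were lower and 1 higher. CHLH, a subunit of the magnesium chelatase that starts chlorophyll synthesis, stood at 10.23, 10.38 and 8.05 in the panicle and 12.98, 12.68 and 12.86 in the leaf (9.76-fold lower, or 5.79-fold without panicle replicate 3), while the mean over its 2 probe sets gave no fall (0.19). SGR, which removes magnesium when chlorophyll is broken down, fell as well, from 9.97, 10.38 and 10.21 to 6.96, 6.25 and 6.13 (13.4-fold lower), as did NYC1, a reductase of chlorophyll b breakdown (by 2.79). CHL9, named for a chlorina mutant, fell by 3.13. On the deposited and the spiked-control scale 5 of the 10 were lower.

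Carbon fixation and photorespiration genes were lower in 7 of 15 cases and higher in 1. GLO1, a glycolate oxidase of photorespiration, stood at 10.27, 9.88 and 7.69 against 13.02, 12.97 and 12.96 (13-fold lower), and GDCSH, the H protein of glycine decarboxylase, at 10.24, 10.42 and 8.25 against 13.10, 13.08 and 13.17 (11.2-fold lower). GLO5 and the fructose bisphosphatase FBPase fell by 3.14 and 2.61. GLO3, of the same glycolate oxidase family, rose instead, from 5.83 to 9.04. The small Rubisco subunit rbcS differed by -0.54 ± 0.34 SE and did not pass, and the Rubisco activase rcaA1 fell by 1.10. Without panicle replicate 3 the folds of GLO1 and GDCSH were 7.50 and 6.90, and rcaA1 differed by -0.64. The adjusted p of rcaA1 reached 0.0985 with 1 array left out. Panicle replicate 3 was the lowest panicle array for 12 of 12 light reaction, 9 of 10 chlorophyll and 12 of 15 carbon fixation genes, against 39% of all genes. Without it 7, 8 and 7 members of the 3 groups were lower, against 6, 8 and 7 with it.

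Other chloroplast genes were lower in 18 of 32 cases and higher in 9. The thioredoxin Trxf, which switches on Calvin cycle enzymes in the light, fell from 13.23, 13.13 and 13.32 to 8.77, 8.69 and 7.79 (28.0-fold lower). Trxm5 fell by 3.60 and CLPD2, a Clp chaperone, by 2.96. FtsH proteases, which repair photosystem II among other tasks, were lower in 6 of 9 and higher in 2 (4 lower on the other scalings). Nitrogen assimilation was mixed (5 of 19 higher, 6 lower). NIA1, a nitrate reductase, stood at 6.58, 5.95 and 5.39 in the panicle and 12.02, 11.87 and 11.74 in the leaf (59.9-fold lower, adjusted p = 1.71e-05). Its chloroplast partners GLN2 and Fd-GOGAT fell by 1.32 and 1.77. GLN2 differed by -0.79 without panicle replicate 3, and its adjusted p reached 0.0838 with 1 array left out. GLN1-3, a cytosolic glutamine synthetase, rose from 4.26 to 8.52, the nitrate transporter NRT2.3 rose by 3.47, and AMT3-2, of the ammonium transporter family, fell by 2.09.

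Sucrose and sugar transport genes were higher in 23 of 50 cases and lower in 9. Sucrose synthases, which cleave sucrose in sink organs, rose in 4 of 6 cases. SUS3 stood at 7.89, 7.74 and 8.37 in the panicle and 0.24, 3.57 and 0.24 in the leaf (at least 16.5-fold higher). The cell wall invertases CIN3 and CIN2 rose from 1.95 and 2.33, under background, to 7.48 and 6.68. SWEET sugar exporters divided between the organs, 5 of 11 higher and 3 lower. SWEET11 stood at 10.71, 11.03 and 11.62 against 6.82, 4.60 and 4.13 (61.3-fold higher, or 108-fold without leaf replicate 1), and SWEET2b at 4.48, 4.65 and 3.07 against 9.33, 9.84 and 9.87 (48.9-fold lower). MST5, a monosaccharide transporter, rose from 1.22 to 6.74.

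Few starch genes passed (3 of 12 higher, 2 lower), and the sign of their median depends on the scaling. GBSS-I, the amylose-making starch synthase of the endosperm and pollen, stood at 12.13, 12.33 and 9.67 in the panicle, lowest in replicate 3, and at 7.30, 5.08 and 6.60 in the leaf (33.1-fold higher). Its fold was 59.8 without that replicate and 21.5 without leaf replicate 2. AMY1.3, an amylase, and DPE1, which rearranges glucan chains, rose by 2.70 and 1.46, and SS2, a soluble starch synthase, fell by 2.89. Seed storage genes, read as markers of filled grain, were higher in 0 of 7 cases and lower in 3, with GLUA-2, a glutelin, at 9.21, 9.39 and 9.72 in the leaf and 7.55, 7.78 and 7.21 in the panicle. GLB fell by 0.80, and GLUB-5 was at least 2.14-fold lower. On the deposited scale 1 of the 7 was lower. The 1 root marker tested, the silicon channel Lsi1, differed by 0.07 ± 0.53 SE, and by 0.73 without panicle replicate 3 (adjusted p = 0.0314).

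Auxin genes were higher in 27 of 57 cases and lower in 10, of which 3 or 4 were lower on the other scalings. GH3.4, of the enzymes that tie auxin to amino acids, stood at 9.85, 9.67 and 10.01 in the panicle and 3.24, 0.24 and 3.07 in the leaf (at least 59.1-fold higher). Aux/IAA repressors were higher in 12 of 24, IAA14 from under background to 7.44, 7.06 and 8.16 (at least 12.1-fold higher) and IAA30 by 5.37. Auxin response factors were higher in 9 of 17 and lower in 1. GH3.1 rose from 2.84 to 7.85, while PIN5a, of a family of auxin carriers, fell by 4.13 and IAA25 by 3.98.

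Cytokinin genes were lower in 12 of 30 cases and higher in 7, against 25.5% and 31.9% of all genes. On the deposited and equal-median scales 9 were lower and 7 higher, and on spiked controls 9 and 5. CKX4, which degrades cytokinin, stood at 5.31, 5.46 and 6.32 in the panicle and 11.12, 11.08 and 11.53 in the leaf (46.9-fold lower). Response regulators, some of which rise with cytokinin signalling, were lower in 5 of 12 and higher in 2. RR4 stood at 5.78, 5.78 and 6.26 against 11.27, 10.95 and 11.35 (38.0-fold lower), and RR9 and RR2 fell by 4.08 and 3.70. RR41 rose from 2.16 to 5.24. The LOG enzymes, which activate cytokinin, were higher in 3 of 8 and lower in 4.

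Gibberellin genes were higher in 5 of 12 and lower in 1, with the synthesis genes GA20OX3 and KAO up by 2.70 and 2.66 and GA20OX2, the semidwarf gene, down by 2.09. The diterpene cyclase CPS1 rose by 1.58. Brassinosteroid genes were even at 4 each way of 16, and 7 were higher and 1 lower on the deposited scale. The signalling factors BZR1 and BZR2 rose by 2.34 and 2.11 and the receptor BRI1 by 1.52, and CYP724B1, a synthesis gene, fell by 3.14. In the abscisic acid group 10 of 23 were higher, led by the dehydration proteins rab25 (2.71 to 8.02) and LEA3 (3.49 to 7.93), and 3 lower, with ZEP, of abscisic acid synthesis, down by 2.22. ABA8OX1, which degrades the hormone, rose by 3.41. In the ethylene and jasmonate group 22 of 50 were higher and 7 lower (1 to 3 lower on the other scalings). ERF31 rose by 2.89. The jasmonate repressors JAZ13 and JAZ9 rose by 4.39 and 3.82 and LOX5, a lipoxygenase, by 3.88. Of 4 strigolactone genes 3 were lower, D3, D14 and CCD7 by 2.14, 0.84 and 1.5, and CCD8A was higher by 3.20. On each of the other scalings 1 was lower. Without panicle replicate 3 CCD7 did not pass (adjusted p = 0.0548).

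Clock and flowering time genes were lower in 11 of 24 cases and higher in 6. Among the falls 3 were pseudo-response regulators of the clock, of which PRR37 fell by 2.58. DTH8, which delays heading in long days, fell from 7.43 to 4.29 and HAP3F and HAP3I, of the same NF-Y family, by 3.51 and 2.90. Hd3a, the rice florigen that is made in leaves and moves to the shoot tip, was brighter in the panicle, at 8.81, 8.94 and 6.27, than in the leaf, at 3.74, 1.70 and 4.04. Panicle replicate 3 was the lowest of the panicle arrays, and the organs did not overlap (adjusted p = 0.00342). On the deposited, equal-median and spiked-control scales 6 of the group were lower.

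Stress regulators outside the heat shock group were few in number. Of 15 DREB and cold genes 8 were higher and 2 lower. DREB1A stood at 9.58, 9.36 and 10.74 in the panicle and 4.67, 6.21 and 7.04 in the leaf (15.2-fold higher, or 9.66-fold without leaf replicate 1). MYB4 rose by 3.53 and LIP9, a dehydrin, by 3.20. In IL50-7 1 of 14 was higher and 1 lower. There LIP9 differed by 2.56 and passed. DREB1A and MYB4 differed by 4.03 and 2.77 and did not pass (limma, adjusted p = 0.0868 and 0.0934). Of 6 WRKY factors WRKY71 rose by 2.89 and WRKY62, WRKY9 and WRKY51 fell by 1.73, 0.84 and 0.79. These falls passed in 0 or 1 case on the other scalings. Of 7 NAC factors 3 were higher and 2 lower. NAC010 and NAC071 rose by 1.80 and 1.01, and NAC45 and NAC068 fell by 1.78 and 1.0. Of the 3 tested probe sets of NAC071 1 was called higher, and in IL50-7 NAC071 differed by 0.008. Without panicle replicate 3 WRKY51 and NAC010 did not pass (adjusted p = 0.0946 and 0.109). Chitinases and defence genes were higher in 7 of 16 and lower in 2. Cht5 rose from 3.87 to 9.71, NPR4 (LOC4327365), of the salicylic acid receptor family, by 2.12, while Cht11 fell by 1.71.

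Signalling kinases divided by family. Of 80 calcium sensors and their kinases 38 were higher and 20 lower. Among the calcium-dependent kinases (CPK) 16 of 20 were higher and 1 lower, with a median of 1.79. CPK2 stood at 7.21, 8.03 and 3.99 in the panicle and 0.53, 0.24 and 0.24 in the leaf (at least 5.48-fold higher). Its bound was 12.7-fold without panicle replicate 3 and 3.13-fold without replicate 2. Among the CIPK kinases, which pair with calcineurin B-like sensors, 13 of 24 were lower and 5 higher, with a median of -0.87. On the deposited scale 7 CIPK genes were higher and 7 lower, and 16 and 1 CPK genes. CIPK12 stood at 1.35, 3.08 and 2.60 against 7.46, 7.13 and 7.49 (at least 10.6-fold lower), and CIPK30 rose from 1.96 to 6.96. The calmodulin-like CML32 rose from 3.53 to 9.04. Both families were described after their values had been seen, and the difference between them was not tested. MAP kinases were higher in 5 of 16 and lower in 5, near the shares over all genes (31.9% and 25.5%). On the deposited scale 6 were higher and 3 lower. MPK17 rose by 3.31 and MPK11 fell by 2.32. Of the 2 genes that share the symbol MAPK2, MAPK2 (LOC4332475) rose by 3.16 and MAPK2 (LOC4328223) fell by 2.07. Protein phosphatases 2C were higher in 18 of 54 and lower in 12, near the shares over all genes (31.9% and 25.5%). PP2C69 rose by 4.17 and PP2C33 from 3.56 to 7.71, and PP2C01 and PP2C05 fell by 3.95 and 3.41.

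Transporter families had members on both sides. Of 27 potassium and sodium transporters 10 were higher and 7 lower, near the shares over all genes (31.9% and 25.5%). HAK4 stood at 7.35, 6.95 and 8.42 in the panicle and 0.24, 0.94 and 0.24 in the leaf (at least 12.3-fold higher), HAK26 rose from 1.65 to 8.27 and HKT1.5, a sodium transporter, from 3.55 to 8.49, and HAK27 fell by 5.30. Metal and phosphate genes were higher in 15 of 66 and lower in 20. The iron-nicotianamine transporter family split, with osysl4 up from 1.59 to 8.64 and osysl7 from 2.45 to 8.58, while 4 of 14 members were lower. The phosphate transporter Pht1;7 rose from 1.46 to 7.87 and the zinc transporter ZIP3 from 0.33 to 6.0. COPT1, a copper transporter, fell by 4.46, and 4 of 5 SPX genes, which sense phosphate status, were lower. Aquaporins were lower in 9 of 23 and higher in 4 (5 each way on the deposited scale). TIP1;2 and PIP1;3 fell by 4.25 and 4.05, while NIP4-1 rose from 2.24 to 5.93 and TIP3;1 from 1.53 to 4.91. ABC transporters were higher in 4 of 12 and lower in 2, with ABCG48 up from 2.14 to 5.79, ABCG37 and ABCG39 by 2.36 and 1.23, and mdr17 down by 1.01. For ABCG39 the mean over its probe sets gave no rise (-0.034).

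The remaining groups were small or mixed. Of 7 metallothioneins, small metal-binding proteins, 5 were lower, MT4A, MT1A and MT4C by 4.07, 2.57 and 1.81. MT2A fell by 1.18, and 1 of its 3 tested probe sets was called lower. MT1B stood at 5.09, 5.63 and 8.87 in the panicle and 9.47, 8.36 and 10.38 in the leaf. Its organs overlapped (limma, adjusted p = 0.0469, and up to 0.147 with 1 array left out). MT2C was higher, at 14.01, 14.01 and 13.93 against 9.56, 11.83 and 11.46 (adjusted p = 0.00300), with 2 panicle arrays at the top of the normalised scale, so the size of its difference is not given. Of 5 BURP-domain genes 2 were higher and 2 lower, BURP16 falling from 6.86 to 1.68 and BURP12 rising from 3.76 to 5.81. Of 5 lipid transfer proteins 2 were higher, LTP110-A from 3.53 to 11.86 and LTP-2 by 3.30, and LTP fell by 1.48. Redox genes were lower in 23 of 60 and higher in 14, and 11 were lower and 13 higher on the deposited scale. Ribosomal proteins, needed by every cell, passed in 3 cases upward and 1 downward of 24, with a median of -0.07 that was above 0 on the other 3 scalings. RPL27 was the member that fell (by 2.03), and RPS15, RPS21 and RPS10-1 rose by 0.77, 0.71 and 0.55. With equal medians and on spiked controls 0 of the 24 were higher.

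The organ difference of KMR3 recurred in IL50-7, whose 6 arrays were normalized and fitted apart and share no array with KMR3. The 3' to 5' ratio of GAPDH was higher on the IL50-7 panicle arrays too, at 7.68 to 18.7 against 2.54 to 6.01 in its leaf. Ubiquitin was also apart, while the actin pairs and cyclophilin overlapped. The part of that ratio in the recurrence was not tested. Of 7679 probe sets higher in the KMR3 panicle and tested in both lines, 5606 (73%) were higher in that of IL50-7, or 87.4% of those called there. Of 8110 lower ones 6013 (74.1%) were lower in IL50-7, or 87.5% of its calls. In each direction 1 probe set was called the opposite way. In IL50-7 18.9% of probe sets were higher and 20.3% lower, fewer than in KMR3. Of 203 named genes called in KMR3 and measured in both lines, 203 had the same sign in IL50-7 and 178 passed there. The named genes were chosen mostly for large differences in KMR3 and do not stand for all its calls. The share of group members that passed in both lines varied from group to group. Such counts depend on the spread among the arrays of each line and do not compare the sizes of the differences. Of DREB and cold genes 8 of 15 were higher in KMR3 and 1 of 14 in IL50-7. Of ethylene and jasmonate genes 22 of 50 and 9 of 47 were higher, and of heat shock genes 22 and 21 of 32. HSP101 differed by 5.53 in KMR3 and 5.30 in IL50-7. For ndhM the differences were -5.22 and -5.46, and for CESA5 4.05 and 3.36.

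In the test of the difference between the lines, an interaction in 1 limma model over 12 arrays, 10 of 34316 probe sets passed, 4 with a larger value in KMR3 (0.0117%) and 6 with a smaller one (0.0175%). MADS3, whose difference was 0.53 in KMR3 and 3.06 in IL50-7, was not among the 10. MT2C was, by another of its 5 probe sets than the brightest, which stands for it here.

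**Figure D4:**
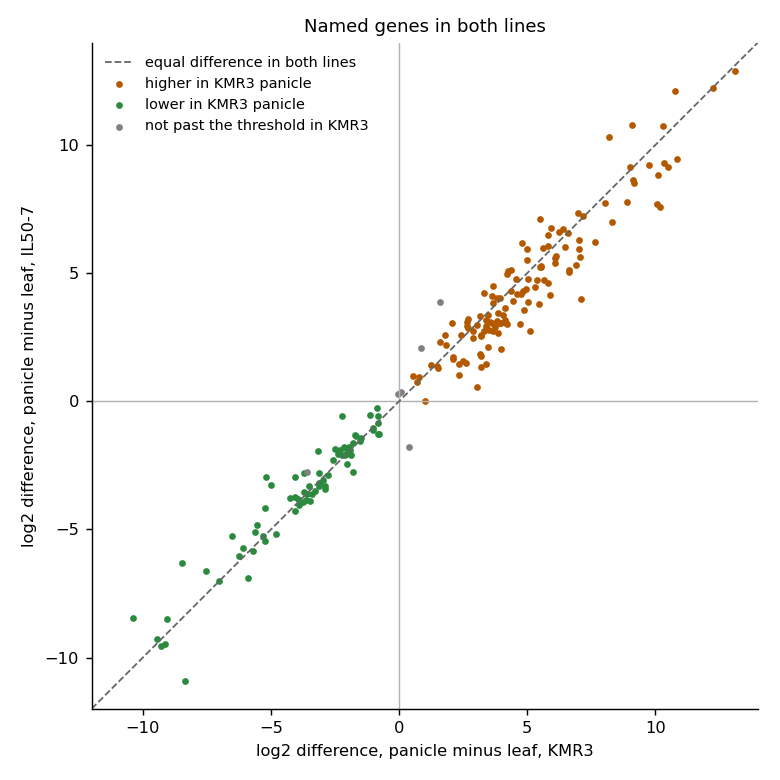
Log2 difference between panicle and leaf in KMR3 (horizontal axis) and in IL50-7 (vertical axis) for the named genes, 1 point per gene, coloured by the call in KMR3, with a dashed line where both lines are equal. The points follow the line from the largest falls to the largest rises, and all 203 called genes measured in both lines have the same sign in both. The genes were chosen mostly for large differences in KMR3.

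Replicates of each organ were compared gene by gene. The median SD over 3 arrays was 0.34 in the panicle and 0.35 in the leaf. Of 19710 probe sets with at least 1 array 3 log2 units above background, 657 ranged over more than 8-fold among the panicle arrays and 484 among the leaf arrays. Panicle replicate 3 was the array farthest from the median for 568 of the 657, while the 484 of the leaf were divided as 147, 209 and 128 over its replicates. Array quality weights gave that panicle replicate 0.391, the lowest of 6, against 0.746 to 2.48 for the others.

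Most of the named genes with the widest panicle range were low on that array. CSLD5, a cellulose synthase-like gene, stood at 6.92, 8.54 and 0.34 in the panicle and 4.80, 4.08 and 4.31 in the leaf, so that replicate 3 alone was under background. CYP71Z6, a cytochrome P450 of the diterpenoid defence compounds, stood at 7.83, 8.12 and 0.24 against 2.43, 9.0 and 3.56, with 1 leaf array as bright as 2 panicle arrays. The ammonium transporter AMT1-2 stood at 7.66, 7.55 and 0.79 against 5.56, 6.25 and 4.36, so that replicate 3 was under background and below every leaf array (difference -0.06). CIPK5 stood at 8.14, 10.21 and 4.07 against 11.28, 10.75 and 11.12 and did not pass (adjusted p = 0.0634). SPPL3 stood at 6.24, 8.32 and 0.24 against 4.06, 4.17 and 1.70. Without panicle replicate 3 CSLD5, SPPL3 and AMT1-2, which had not passed, were higher by 3.32, 3.93 and 2.21 (adjusted p = 0.00216, 0.0126 and 0.0135), and CIPK5 differed by -1.87 (adjusted p = 0.0284). C4, the 1 exception, was low in replicate 1.

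**Figure D5:**
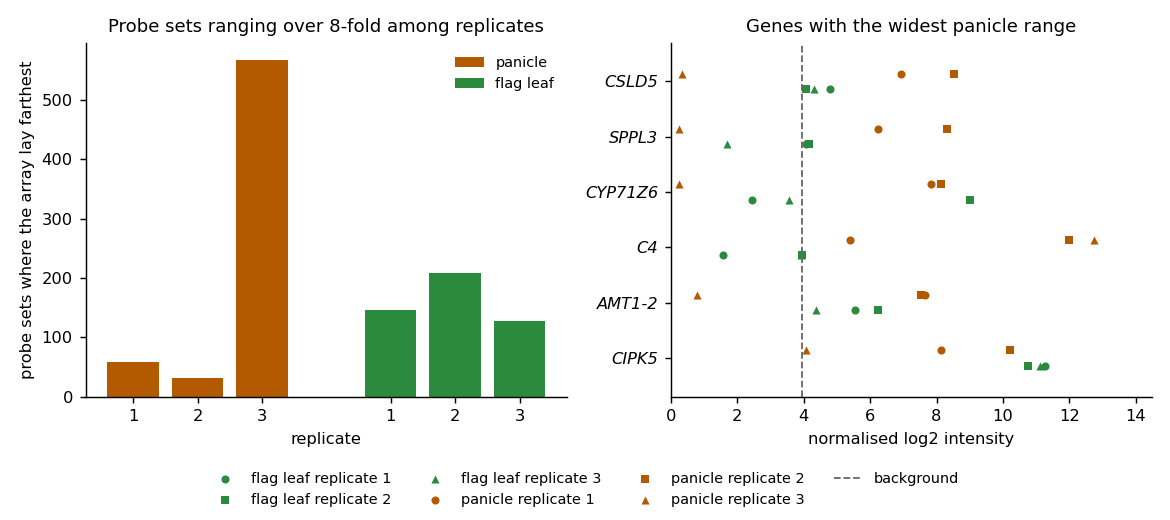
Left, number of probe sets that ranged over more than 8-fold among 3 replicates, counted for the replicate farthest from the median, in panicle (brown) and leaf (green). Right, normalised log2 intensity of the 6 named genes with the widest panicle range on each array, with the background at the dashed line. Panicle replicate 3 accounts for 568 of 657 probe sets and for the lowest value of 5 of the 6 genes.

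Leaving out panicle replicate 3 gave 15622 called probe sets, against 16069 with all 6 arrays and 13115 to 14421 without any 1 of the others. Of the 16069, 14386 were called in the same direction and 0 in the opposite one, 1449 did not pass, and 234 fell under the filter on low values. In turn 1126 that had not passed did so, and 110 more that the filter had removed. Of 205 named genes that passed, 5 did not pass without it, which were SPL16, SPL14, NAC010, WRKY51 and CCD7, and 7 fell under the filter. Counting each of the 6 arrays left out, 18 named genes lost their call at least once. The other 13 were BURP12, C4, CRC1, DPE1, KAO, MADS27, MPK17, NAC068, RAFTIN1, RPS10-1, RPS15, WRKY9 and mdr17, with RPS10-1 at up to 0.103 and WRKY9 at up to 0.114. By gene, 30.4% were then higher and 26.5% lower. For 43 of 211 named genes the probe set is of a type that can match related genes, among them MADS7, MADS13, OSH1, HSFA2A, BURP2, SWEET11, GBSS-I, Trxf and RR4, and their signal may be shared. Of 28 named genes with over 1 tested probe set, 11 had a probe set that was not called in the same direction, including GLO1, GDCSH, CHLH, CSLF6, GLUA-2 and MADS27.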

How the data were processed

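Biotin-labelled cRNA of KMR3 flag leaf and panicle was read on Affymetrix arrays of 1 colour, per the labels' protocols. The authors deposited 1 linear intensity per probe set and array. GCOS 1.2 is named in the submitters' processing notes, while the sources used here do not state the algorithm, background correction or scaling. Deposited array medians were 11.3 to 22.7 and trimmed means 149 to 296, and the number of arrays limits the precision.

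Intensities were log2 transformed with no pseudocount, quantile normalized over the 6 KMR3 arrays and raised to a floor at the 10th percentile (0.24). Control probe sets (187) were then left out and probe sets with a mean above the 40th percentile kept. limma 3.58.1 (R 4.3.3) fitted organ means with a trend in the prior variance (4 residual and 3.31 prior degrees of freedom), with Benjamini-Hochberg adjustment over all probe sets at 0.05, and IL50-7 was fitted the same way. Background is set at the 95th percentile of 23 controls whose transcripts should be absent. A probe set names a gene where GEO's platform annotation gives 1 gene (22436 probe sets), 95 had several genes and 34663 none, and symbols were updated through a RefSeq table of another assembly, used for names only. A gene is represented by its brightest tested probe set. In 1 simulation 200 of 34316 probe sets were changed. Of those with a log2 change of 2, 25 of 100 were called, and of those with a change of 1, 0 of 100. Of 27 calls 2 were false. In the data 46.8% were called, a far larger share than the simulation changed, so these rates do not carry over to the data.

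The comparison, its 53 gene lists (taken from symbols) and the genes named were chosen with earlier results of these data known. Named genes are those with the largest changes (12 with a name and 4 with a LOC number each way), up to 4 called members per list and the 6 with the widest panicle range. CAB2R, CIN2, MADS1, MADS2, MADS4, MADS14, MADS16, MADS18, MADS3, MADS56, MADS58, rbcS and other list members outside this rule were named after their values were seen. The families inside lists were chosen in that way too. Same-numbered leaf and panicle arrays did not deviate together (r = -0.0003, -0.0099 and -0.035). The labels do not say whether the numbers pair them, and these correlations cannot show whether they came from the same plants.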

Additional observations from a re-analysis of the deposited data

Results flagged for a closer look

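A signal stood out in data that the comparisons do not use. The control probe set for the 3' part of ef1a of the blast fungus had deposited intensities of 94.5, 98.0 and 90.5 on the KMR3 leaf arrays and 0.79, 1.47 and 1.23 on the panicle arrays, where background on the normalised scale corresponds to 15.5. In IL50-7 the leaf values were 17, 114 and 56.7 and the panicle values 0.99, 1.29 and 15.3. A second probe set for the 3' part stood at 10.6, 48.4 and 55.7 on the KMR3 leaf arrays and at 0.82, 1.55 and 1.02 on the panicle arrays. The probe sets for the 5' and middle parts of the same transcript lay between 1.93 and 11.5 on the KMR3 leaf arrays. Whether the fungus was present was not tested.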

How the results depend on the processing

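Under 12 other settings and with each array left out in turn, total calls of 16069 ranged from 11590 on spiked controls, a scaling added after seeing the data, to 17828 with array weights, except 6368 against a minimum of 2-fold, of which 3283 were higher and 3085 lower. Without 1 array they were 13115 to 15622. Calls of lower expression depended most on the scaling, at 8253 here, 4066 on the deposited scale, 5070 with equal medians and 4677 on spiked controls, and those shared with IL50-7 fell to 3331 on the deposited scale. Over all lists 463 of 1155 genes were higher (242 against 2-fold, 382 to 438 without 1 array) and 275 lower, or 159, 182, 172 and 132 on the deposited, equal-median and spiked-control scales and against 2-fold (239 to 286 without 1 array). DNA replication genes that were higher numbered 11 with a filter at the 60th percentile, which tests fewer genes, and 10 against 2-fold, when 0 were lower. Against 2-fold 22 kinesins and tubulins, 13 heat shock, 0 light reaction and 0 chlorophyll genes were higher. Heat shock genes that were lower numbered 5 with array weights and 0 on the deposited, equal-median and spiked-control scales and against 2-fold. Chlorophyll genes that were lower numbered 5 on the deposited scale and on spiked controls and 4 against 2-fold, and those higher 0 on spiked controls and 1 to 2 without 1 array. With the replicate block 14455 probe sets were called and 8 named genes no longer passed.

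Reversed values were confined to genes that had not passed or had discordant probe sets. With the mean of probe sets CHLH was at 0.19 and ABCG39 at -0.034. AMT1-2 was at 1.75 with array weights, 0.37, 0.20 and 0.13 on the deposited, equal-median and spiked-control scales and 0.36 with the floor at the 25th percentile. Without 1 array in turn the differences were -0.31 to 0.73 for Lsi1, -0.76 to 3.32 for CSLD5, -0.093 to 3.93 for SPPL3, -0.96 to 2.95 for CYP71Z6 and -1.20 to 2.21 for AMT1-2, each highest without panicle replicate 3. Counted over named genes and settings, 175 pairs lost a call and 8 gained one. The causes were not tested. Values near background depend on the floor.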
